A study of Aquarana catesbeiana with 18 samples.

Results

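Wild-type eyes and wild-type back skin, the pigmented organs of the American bullfrog (Aquarana catesbeiana) in this series, were compared gene by gene. The samples were chosen by their labels: 3 eye libraries and 3 back skin libraries of the wild-type genotype, 6 of the 18 RNA sequencing libraries of the series. The whole series holds liver, back skin and eyes of wild-type and albino frogs, with 3 libraries in each of 6 groups, and it addresses pigment genes and oxidative stress in albino animals. The compared groups share genotype, species and library method, and the labels name no treatment, age, sex or strain. The labels do not say whether the 3 libraries of a group come from separate animals, so the p-values measure the spread between these samples, which may be technical. Both organs are mixtures of many cell types, and with whole-organ RNA fewer cells of a type and less RNA per cell cannot be told apart.

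Black pigment in vertebrates is melanin, made in organelles called melanosomes. In a frog eye it lies in the retinal pigment epithelium, which grows out of the optic cup of the brain, and in melanocytes of the iris and choroid that come from the neural crest. Amphibian skin carries neural crest melanophores together with xanthophores, which hold yellow pteridines and carotenoids, and iridophores, which reflect light from crystals of purines. Tyrosinase and its relatives make melanin, PMEL builds the fibrils it settles on, membrane transporters set the chemistry of the organelle, and myosins and Rab proteins move it. Around these cells the eye has photoreceptors, neurons and the crystallin-filled lens, while the skin has a keratinised epidermis, ion-transporting cells, glands and a collagen dermis.

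Library totals were 36.3, 34.8 and 36.4 M counts in eyes 1, 2 and 3 and 36.4, 35.7 and 36.8 M in skin 1, 2 and 3. A count was seen for 20583 to 20856 of 24636 genes in an eye library and for 19584 to 20216 in a skin library. Defining markers were in the labelled organ: rod phototransduction genes held 4.33, 2.78 and 3.45% of eye counts against at most 0.00699% in skin, and the keratin list held 7.68, 8.26 and 6.87% of skin counts against 0.182, 0.228 and 0.170% in eyes. Crystallin and other lens genes took 22.9, 38.0 and 26.6% of eye counts, most in eyes 2. Skeletal muscle markers took 0.354, 0.194 and 0.571% of eye counts and at most 0.00373% of skin counts, and macrophage markers took 0.121% in skin 1 against 0.0294 and 0.0266% in skin 2 and 3. Values below are counts per 1e6 scaled counts (CPM) for eyes 1, 2 and 3 and for skin 1, 2 and 3, in that order. Differences are log2 eyes minus skin with their SE (n = 3 libraries per organ), and adjusted p-values come from edgeR's quasi-likelihood test over all 18338 tested genes. A gene was called at an adjusted p under 0.05, and a level comparison between genes uses FPKM, the authors' value per kilobase of gene and 1e6 counts.

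Most tested genes differed between the organs. Of the 18338, 10230 were called (55.8%), 5352 higher in eyes (29.2%) and 4878 higher in skin (26.6%). With a difference of at least 4-fold as well, 5460 were called (29.8%), 3183 of them higher in eyes (17.4%) and 2277 higher in skin (12.4%). For 12120 genes (66.1%) the eye and skin libraries did not overlap. A called gene is therefore the usual case in this comparison, and the counts given for gene lists are read against these shares. The median log2 difference of all tested genes was 0.0034. A gene near 0 in one organ enters the test through the other organ alone and then has to differ, so the calls of eye-only and skin-only genes below describe where they were measured.

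**Figure D1:**
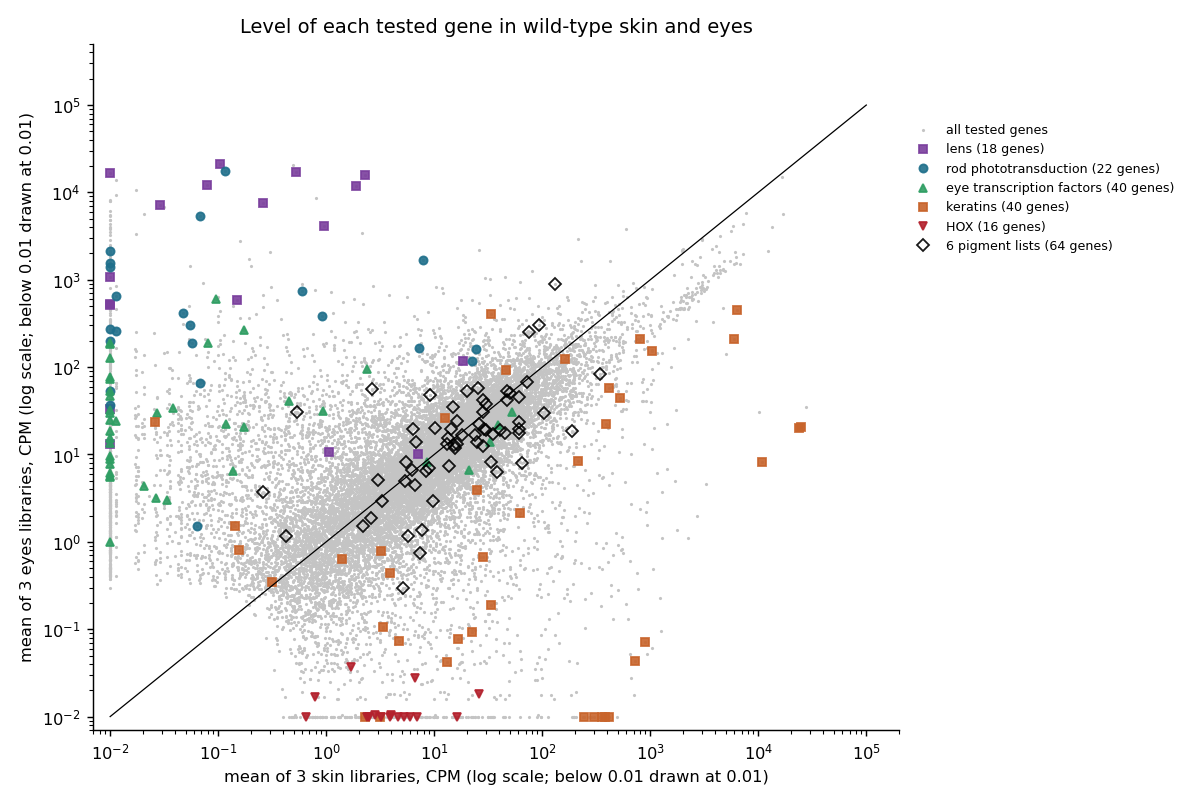
Mean CPM of 3 eye libraries against mean CPM of 3 skin libraries for each tested gene, both on log axes, with values below 0.01 drawn at 0.01. Lens, rod and most eye transcription factor genes lie far above the line of equal levels, most keratins and the 16 HOX genes far below it, and the 64 tested genes of 6 pigment lists lie on both sides of it.

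Most pigment genes were measured in both organs. The 6 lists of melanin enzymes, melanosome matrix, transport, movement and biogenesis genes and pigment cell regulators hold 66 genes, of which 65 had a count and 64 were tested. In all 6 libraries 57 of the 66 reached 1 CPM, and of these 11 were called higher in eyes, 18 higher in skin and 28 were not called. That is 87.7% of the pigment genes with a count, beside 49.7% of all genes with a count, and the called share of the 57 (50.9%) was close to that of all genes at this level (51.3%). Another 2 genes reached 1 CPM in every eye library but not in every skin library, and 4 the reverse. No gene of the 6 lists met the rule for a gene of one organ, at least 1 CPM in each library of one organ and at most 3 counts over the other, which 2.94% of all genes with a count met for eyes and 0.759% for skin.

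The 3 melanin enzymes were called higher in eyes, 3 of 3 against 29.2% of all tested genes. TYR, the tyrosinase that starts melanin synthesis, had 62.9, 41.4 and 39.3 CPM in eyes and 11.0, 9.79 and 6.91 CPM in skin. Every eye library lay above every skin library, with a log2 difference of 2.37 ± 0.28 (adjusted p = 0.000391). TYRP1, which acts later on the pathway, had 309, 326 and 280.1 CPM in eyes and 74.1, 98.9 and 106 CPM in skin, again without overlap, and differed by 1.72 ± 0.21 (adjusted p = 0.000475). That call was lost in 1 fit of all 18 libraries of the series, where the adjusted p was 0.0690. DCT, the dopachrome tautomerase between them, had 262, 221 and 265 CPM in eyes and 41.5, 102 and 83.3 CPM in skin, with the lowest value in skin 1, and differed by 1.72 ± 0.34 (adjusted p = 0.00433). Per length the order was the same in both organs: TYRP1 led with 138 ± 15.2 FPKM (SD, n = 3) in eyes and 38.9 ± 5.28 in skin. DCT followed with 106 ± 20.5 and 29.3 ± 12.5 FPKM, and TYR was lowest with 11.8 ± 4.44 and 2.14 ± 0.773 FPKM.

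Members of the melanosome matrix and membrane list split evenly, with 2 of 4 called higher in eyes and 2 higher in skin. PMEL, whose fragments form the fibrils of early melanosomes, had 992, 951 and 748 CPM in eyes and 84.9, 156 and 156 CPM in skin. Its lowest eye value stood well above its highest skin value, and the log2 difference was 2.76 ± 0.31 (adjusted p = 0.00035), the largest of the 4. At 382 ± 77.2 FPKM (SD, n = 3) PMEL was also the highest of the 4 per length in eyes, against 51.5 ± 14.4 FPKM in skin. MLANA, a small melanosome membrane protein that binds PMEL, had 38.9, 47.3 and 41.6 CPM in eyes and 22.7, 30.5 and 31.1 CPM in skin. The groups did not overlap, but the difference was small, 0.60 ± 0.19 (adjusted p = 0.0298), and the call was lost without eyes 1, 2 or 3 or skin 1 (adjusted p 0.0567, 0.108, 0.0782 and 0.0756). GPR143, the melanosomal receptor behind X-linked ocular albinism in humans, was in contrast called higher in skin. It had 18.7, 16.4 and 17.4 CPM in eyes and 29.7, 58.9 and 46.3 CPM in skin, a log2 difference of -1.36 ± 0.26 (adjusted p = 0.00411). GPNMB, a PMEL relative that macrophages also make in mammals, had 83.4, 91.9 and 77.1 CPM in eyes and 386, 232 and 420.0 CPM in skin, a log2 difference of -2.04 ± 0.27 (adjusted p = 0.000701). Macrophage markers were highest in skin 1 while GPNMB was highest in skin 3, and their part in the GPNMB difference was not tested.

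The 8 melanosome transporters had 1 member called higher in eyes, 2 higher in skin and 5 not called, a smaller called share (37.5%) than that of all tested genes, and with the replicate number as a block 2 were called higher in eyes and 1 higher in skin. OCA2, which is linked to chloride flow across the melanosome membrane, had 43.3, 59.3 and 57.1 CPM in eyes and 6.64, 28.4 and 25.6 CPM in skin. Skin 1 stood far below the other skin libraries, and the log2 difference was 1.40 ± 0.50 (adjusted p = 0.0489). The OCA2 call was lost without eyes 1, 2 or 3 or skin 3 (adjusted p 0.0815, 0.122, 0.110 and 0.0659) and with no count filter (0.0501). SLC24A5, a potassium-dependent sodium-calcium exchanger, showed the same low skin 1: 14.5, 13.1 and 13.9 CPM in eyes and 2.81, 9.01 and 8.55 CPM in skin. Its difference of 1.03 ± 0.42 (adjusted p = 0.0751) was not called, though the libraries did not overlap. It was called under 8 of 16 alternatives, among them the replicate block (0.0413), DESeq2 (0.0422) and leaving out skin 1 (0.0367). SLC45A2, a sugar and proton transporter of melanosomes, had 14.6, 13.2 and 11.3 CPM in eyes and 11.1, 14.7 and 13.6 CPM in skin. These ranges overlapped, and the log2 difference of -0.01 ± 0.20 (adjusted p = 0.959) had a 95% interval of -0.49 to 0.46. MFSD12, SLC7A11 and TPCN2, which carry cysteine, cystine and sodium, were not called either, at -0.38 ± 0.25, 0.47 ± 0.29 and -0.48 ± 0.46.

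Both transporters called higher in skin also serve cells without pigment. CTNS, which exports cystine from lysosomes and melanosomes, had 19.7, 25.1 and 26.6 CPM in eyes and 61.4, 66.7 and 53.1 CPM in skin, a log2 difference of -1.34 ± 0.19 (adjusted p = 0.000895) with no overlap. ATP7A, the copper pump that loads tyrosinase, differed by -0.65 ± 0.22 (adjusted p = 0.0401). That call was lost under 13 of 16 alternatives, among them the replicate block (0.0515), library totals in place of TMM (0.167), and leaving out any of eyes 1, 2 or 3 or skin 1 or 2 (0.103 to 0.129).

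**Figure D2:**
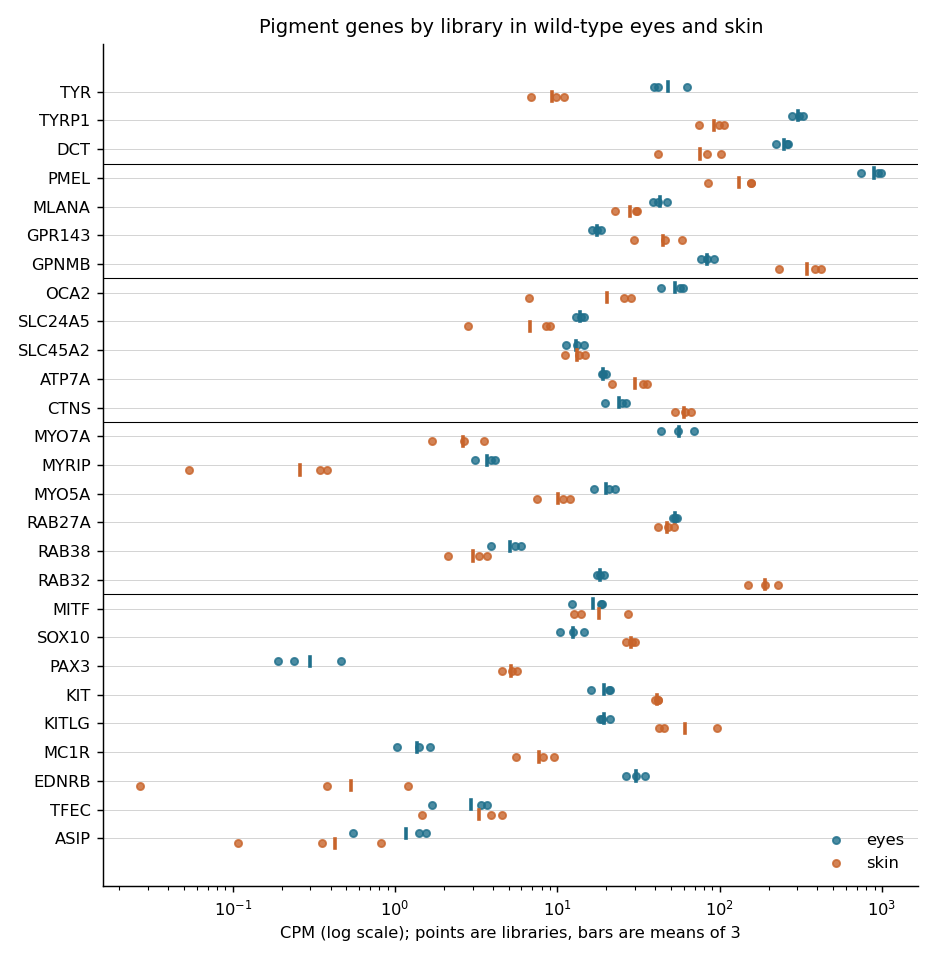
CPM on a log axis for 27 pigment genes in each wild-type library, with points for libraries and bars for means of 3. Horizontal lines separate melanin enzymes, matrix and membrane, transport, movement, and regulators. Eye points lie to the right for TYR, TYRP1, DCT, PMEL and MYO7A, skin points lie to the right for GPNMB, RAB32, PAX3 and MC1R, and the points mix for SLC45A2 and MITF.

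Genes of melanosome movement held larger differences than any gene of the other melanosome lists. Of 9 tested, 3 were called higher in eyes, 2 higher in skin and 4 were not called, a share of 55.6%, close to that of all tested genes. With the replicate number as a block it was 4 and 1. MYO7A, the myosin that moves melanosomes in mouse retinal pigment epithelium and is also found in photoreceptors and hair cells, had 69.3, 43.8 and 55.4 CPM in eyes and 3.55, 1.70 and 2.67 CPM in skin. The log2 difference was 4.41 ± 0.35 (adjusted p = 6.85e-05). MYRIP, which links MYO7A to Rab27a in mammals, moved with it, at 4.10, 3.10 and 3.92 CPM in eyes and 0.380, 0.0538 and 0.342 CPM in skin, a difference of 3.83 ± 0.65 (adjusted p = 0.00222). MYO5A, the myosin of mammalian skin melanocytes, was also called higher in eyes, by a smaller 0.99 ± 0.24 (adjusted p = 0.0103). Rab27a anchors both motors to the melanosome in mammals, and RAB27A had similar levels in the organs: 54.3, 52.7 and 51.7 CPM in eyes and 48.3, 41.4 and 52.5 CPM in skin. Its difference of 0.16 ± 0.16 (adjusted p = 0.423) had a 95% interval of -0.21 to 0.53. MLPH, melanophilin, which links Rab27a to MYO5A, was not called at -0.38 ± 0.27. RAB32 and RAB38 are related Rab proteins that both deliver melanin enzymes to melanosomes in mice. RAB32 had 18.3, 19.5 and 17.4 CPM in eyes and 150.5, 189.7 and 229.6 CPM in skin, a log2 difference of -3.37 ± 0.22 (adjusted p = 3.41e-05). RAB38 had 5.48, 5.99 and 3.92 CPM in eyes and 3.70, 3.28 and 2.12 CPM in skin, and its difference of 0.75 ± 0.32 (adjusted p = 0.0817) was called only with the replicate block (0.0483). MREG, melanoregulin, was called higher in skin at -0.58 ± 0.18 (adjusted p = 0.0328), and lost this under 12 of 16 alternatives, among them the replicate block (0.0543), library totals (0.135), and leaving out any eye library, skin 2 or skin 3 (0.0553 to 0.125).

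The BLOC, HPS and AP3 complexes sort cargo to lysosome-related organelles, melanosomes among them. Of 19 genes 18 were tested, 12 were not called, 5 were called higher in skin and 1 higher in eyes, and the called share of 33.3% was below that of all tested genes. The skin-higher members were AP3B1, a large AP-3 subunit, at -1.79 ± 0.18, BLOC1S6 (pallidin) at -1.78 ± 0.15, BLOC1S5 (muted) at -1.72 ± 0.30, HPS4 at -1.05 ± 0.16 and AP3M1 at -0.85 ± 0.22. The AP3M1 call was lost without eyes 1 or 3 (adjusted p 0.0587 and 0.0644). BLOC1S3 differed in the other direction, by 1.24 ± 0.17 (adjusted p = 0.000906).

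Regulators of pigment cells were called higher in skin more often than in eyes. Of 23 genes, 22 had a count and were tested: 10 were called higher in skin, 3 higher in eyes and 9 were not called, beside shares of 26.6% and 29.2% over all tested genes, and the list's median log2 difference was -0.48. MITF, the transcription factor that drives melanin genes in both retinal pigment epithelium and neural crest melanocytes of mammals, had 12.2, 18.6 and 18.8 CPM in eyes and 13.9, 27.4 and 12.7 CPM in skin. The ranges overlapped, and the log2 difference was -0.12 ± 0.35 (adjusted p = 0.781) with a 95% interval of -0.94 to 0.69. TFEC, a relative of MITF, was not called at -0.18 ± 0.50 (adjusted p = 0.783).

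Several factors and receptors of the neural crest lineage were called higher in skin. PAX3, which acts with SOX10 upstream of MITF in neural crest cells, had 0.191, 0.466 and 0.237 CPM in eyes and 5.22, 5.65 and 4.58 CPM in skin, a log2 difference of -4.12 ± 0.43 (adjusted p = 0.000241). PAX7, its close relative, differed by -3.30 ± 0.56, and FOXD3, an early neural crest factor, by -2.31 ± 0.36. SOX10, present in neural crest pigment cells and peripheral glia, had 12.5, 14.5 and 10.3 CPM in eyes and 30.3, 28.9 and 26.3 CPM in skin, and differed by -1.19 ± 0.19 (adjusted p = 0.00163). SNAI2, a repressor needed for melanoblast migration in mice, had 6.62, 8.88 and 8.45 CPM in eyes and 66.3, 64.3 and 63.0 CPM in skin, a difference of -3.02 ± 0.18, and LEF1, an effector of Wnt signals, differed by -2.02 ± 0.16. None of these groups overlapped. Other members of the list were not called: TFAP2A at -0.08 ± 0.22, SOX9 at -0.21 ± 0.39 and LTK at -0.10 ± 0.23. The same held for ALX4 at -0.29 ± 0.29, EDN3 at -0.36 ± 0.21 and CSF1R at -0.59 ± 0.51.

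Among receptors and ligands, MC1R, the melanocortin receptor that switches on melanin synthesis, had 1.41, 1.65 and 1.03 CPM in eyes and 9.48, 8.15 and 5.54 CPM in skin, a log2 difference of -2.51 ± 0.33 (adjusted p = 0.000689). KIT, the receptor that keeps melanoblasts alive, had 16.0, 21.0 and 20.9 CPM in eyes and 41.5, 39.9 and 41.5 CPM in skin (-1.09 ± 0.17 (adjusted p = 0.00164)). Its ligand KITLG had 18.3, 18.8 and 21.1 CPM in eyes and 42.1, 95.8 and 45.6 CPM in skin, highest in skin 2, and differed by -1.65 ± 0.34 (adjusted p = 0.00511). The neuregulin receptor ERBB3, used by crest-derived glia and pigment stem cells in zebrafish, differed by -2.58 ± 0.60 (adjusted p = 0.0094). EDNRB, an endothelin receptor of crest cells that also serves vessels and retinal glia, went the other way. It had 26.4, 34.7 and 30.7 CPM in eyes and 0.380, 0.0269 and 1.20 CPM in skin, a log2 difference of 5.88 ± 0.89 (adjusted p = 0.00133). SOX5 (1.62 ± 0.24) and TFAP2B (1.18 ± 0.35 (adjusted p = 0.0245)) were the other regulators called higher in eyes. The TFAP2B call was lost without eyes 1, 2 or 3 or skin 1 or 3 (0.0555 to 0.0700). ASIP, the agouti antagonist of MC1R, stood at 0.548, 1.40 and 1.55 CPM in eyes and 0.355, 0.108 and 0.821 CPM in skin and was not called at 1.45 ± 0.79 (adjusted p = 0.159), but passed under limma on log2(FPKM + 1) (0.0384) and log2(FPKM + 0.1) (0.0404). POMC, the precursor of the MC1R ligand, had no count in any of the 6 libraries.

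Genes of the other pigment cell types were measured as well. Purine synthesis genes feed the crystals of iridophores and also serve every dividing cell. Of 17 such genes 16 were tested: 9 were called higher in skin (56.2%), 5 higher in eyes (31.2%) and 2 were not called. The shares over all tested genes were 26.6% and 29.2%. PPAT, the first committed enzyme, differed by -1.80 ± 0.25, ATIC, the last one before inosine monophosphate, by -1.41 ± 0.15, and ADSL and ADSS1 of the adenine branch by -1.39 ± 0.30 and -1.15 ± 0.16. The genes called higher in eyes included PFAS, of the same synthesis path as PPAT and ATIC, at 0.96 (adjusted p = 0.0216). The PFAS call was lost with library totals (0.0518) and without eyes 1 (0.0776). GART of that path was not called at -0.06. Salvage enzymes were also among the genes called higher in eyes. PNP, the purine nucleoside phosphorylase, had 196, 339 and 227 CPM in eyes and 80.6, 88.9 and 65.2 CPM in skin, a difference of 1.70 ± 0.27 (adjusted p = 0.00152). HPRT1, which salvages guanine and hypoxanthine, differed by 1.89 ± 0.19, and IMPDH1, the photoreceptor form of inosine monophosphate dehydrogenase in mammals, by 1.96 ± 0.22. APRT, which salvages adenine, differed by 2.17 ± 0.77 (adjusted p = 0.0471), a call lost under 7 of 15 alternatives, among them leaving out eyes 1, 2 or 3 or skin 1 or 2 (0.0655 to 0.203). Among the skin calls IMPDH2 was lost under 7 of 16 alternatives and PAICS under 12 of 16.

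Of 11 xanthophore genes 9 were tested: 4 were called higher in skin (44.4%), 2 higher in eyes (22.2%) and 3 were not called. The shares over all tested genes were 26.6% and 29.2%. XDH, xanthine dehydrogenase, had 0.977, 1.15 and 1.00 CPM in eyes and 17.4, 26.6 and 18.2 CPM in skin, a log2 difference of -4.31 ± 0.27 (adjusted p = 3.03e-05), and zebrafish need it for the colour of xanthophores. PCBD1, which recycles the cofactor tetrahydrobiopterin, differed by -3.45 ± 0.68 (adjusted p = 0.00445). The other skin calls were less firm. QDPR lost its call under 6 of 16 alternatives (0.0646 to 0.104), and LOC141106221, another copy of PCBD1, under 10 of 16 (0.0558 to 0.162). BCO1, which splits beta-carotene into retinal, had 11.9, 16.1 and 13.3 CPM in eyes and 0.380, 0.161 and 0.513 CPM in skin, a difference of 5.30 ± 0.44 (adjusted p = 8.8e-05) in the other direction. GCH1, the first enzyme of pteridine synthesis, was not called at 1.42 ± 0.57 (adjusted p = 0.0701). It was called with the replicate block (0.0261), with DESeq2 (0.0249), in 1 fit of all 18 libraries (0.00964) and without skin 1 (0.0110). Its regulator GCHFR was called higher in eyes at 1.48 ± 0.49 (adjusted p = 0.0367), and lost this with the block (0.0617) and without any one of eyes 1, 2 and 3, skin 1 and skin 2 (0.0502 to 0.163).

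**Figure D3:**
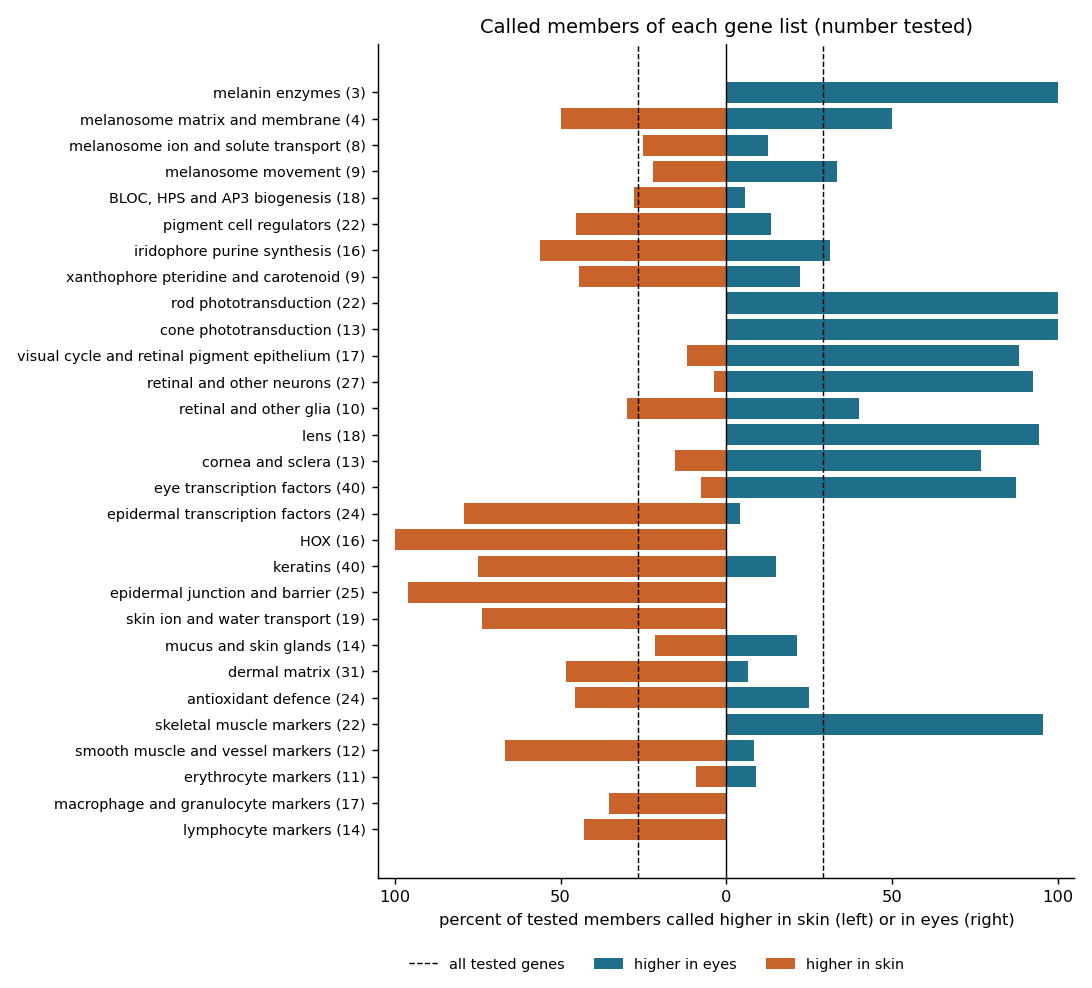
Percent of the tested members of each gene list called higher in skin, drawn to the left, or higher in eyes, drawn to the right, with the number tested in brackets. Dashed lines mark 26.6% and 29.2%, the shares over all tested genes. Photoreceptor, lens and eye transcription factor lists extend to the right, HOX, keratin and junction lists to the left, and the melanosome transport and movement lists stay near or inside the dashed lines.

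Outside the pigment lists, photoreceptor genes were compared. All 22 tested rod genes and all 13 tested cone genes were called higher in eyes, with median log2 differences of 13.19 and 10.56, and 12.06 for the rods when genes without skin counts are set at their bound. SAG, the arrestin of rods, had 236848 counts over the eye libraries and none in skin, at least 74492-fold higher with the floor of 3 counts over the group. GNAT1, the rod transducin, had 6509, 4642 and 4941 CPM in eyes and 0, 0 and 0.205 CPM in skin. GNAT2, its cone counterpart, had 19148 counts in eyes and 0 in skin, at least 6022-fold higher. OPN1SW, a short-wave cone opsin, differed by 8.61 ± 0.94 (adjusted p = 0.000299). In all, 9 rod and 6 cone genes met the rule for genes of the eyes only.

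Retinal neurons and the lens gave similar pictures. Of 28 neuronal genes 27 were tested, of which 25 were called higher in eyes, 1 higher in skin and 1 was not called, with a median of 7.90 (7.38 at bounds). The 18 tested lens genes had 17 called higher in eyes, with a median of 14.02 (13.43 at bounds), and CRYM, which binds thyroid hormone and is not a structural lens protein in most vertebrates, was not called at 0.50 ± 0.25 (adjusted p = 0.129), but was called without skin 3 (0.0276) and under limma (0.0417 to 0.0436). CRYAA, the alpha A crystallin, had 12556, 22961 and 15069.6 CPM in eyes and no count in skin, at least 578513-fold higher. CRYBB1, a beta crystallin, had 11427, 22049 and 14552 CPM in eyes and 0.127, 1.94 and 4.76 CPM in skin. Eyes 2 held the most of both. CRYAA led in eyes at 24408 FPKM, ahead of CRYBA1 at 22129. This ranking covers only genes with a symbol, called at least 4-fold higher in eyes, with no overlap. Crystallin genes named by a locus number were not ranked.

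The visual cycle and retinal pigment epithelium list of 18 genes had 15 of 17 tested members called higher in eyes and 2 higher in skin. Retinal pigment epithelium recycles the retinal chromophore and is the pigmented tissue peculiar to the eye, and its genes stood at very different levels in skin. RPE65, the isomerase of the cycle, had 1023, 1012 and 994 CPM in eyes and 36.5, 26.1 and 35.8 CPM in skin. RLBP1, the retinal carrier CRALBP, had 2379, 2142 and 2104 CPM in eyes and 16.4, 41.3 and 21.0 CPM in skin, and RGR, a retinal-binding opsin of the epithelium, had 818, 616 and 686 and 10.9, 9.47 and 16.1 CPM. Their log2 differences were 4.94 ± 0.25, 6.39 ± 0.46 and 5.86 ± 0.32, and no library overlapped. All 3 were nonetheless measured in every skin library. They were chosen for description after their values were seen, and other members stood elsewhere. RRH, another opsin of the epithelium, had no count in wild-type skin. RDH5, a retinol dehydrogenase, and STRA6, a receptor for the retinol carrier, were at 0.705% and 0.661% of the eye mean, while KCNJ13, a potassium channel, DHRS3, a retinal reductase, and MERTK, a receptor for taking up shed photoreceptor membrane, were at 5.83%, 10.9% and 24.7%. Over unscaled library totals RPE65 stood at 27.2 CPM or more in wild-type skin and between 18.5 and 36.4 CPM in albino skin, against at most 0.104 CPM in wild-type liver. RLBP1 was at 16.7 CPM or more in wild-type skin and between 12.7 and 45.5 CPM in albino skin, against at most 0.0261 CPM in liver. RGR reached 9.86 CPM or more in wild-type skin and 19.7 to 25.6 CPM in albino skin, with at most 0.182 CPM in liver.

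Skin levels of these genes were 3.25% (RPE65), 1.19% (RLBP1) and 1.72% (RGR) of the eye mean, while GNAT1 stood at 0.00128%, CRYAA at 0% and CRYBB1 at 0.0142%. Some rod genes were measured in every skin library as well: GUCA1B, a guanylate cyclase activator, stood at 4.92, 6.05 and 8.83 CPM over unscaled totals, 4.34% of the eye mean, with 0 in liver. GNGT1, a transducin subunit, stood at 8.83, 3.89 and 9.21 CPM on the same scale, 0.463% of the eye mean, with up to 10.43 CPM in liver. The source of these skin counts was not tested. Both genes of the list called higher in skin act in vitamin A handling: LRAT, which esterifies retinol for storage, had 0.191, 0.373 and 0.184 CPM in eyes and 1.04, 1.64 and 1.57 CPM in skin (-2.50 ± 0.52 (adjusted p = 0.0056)). RBP4, the retinol carrier of blood, had 0.715, 1.52 and 8.10 CPM in eyes and 157, 264 and 371 CPM in skin (-6.26 ± 1.02 (adjusted p = 0.00186)), and reached 11270 CPM in liver.

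**Figure D4:**
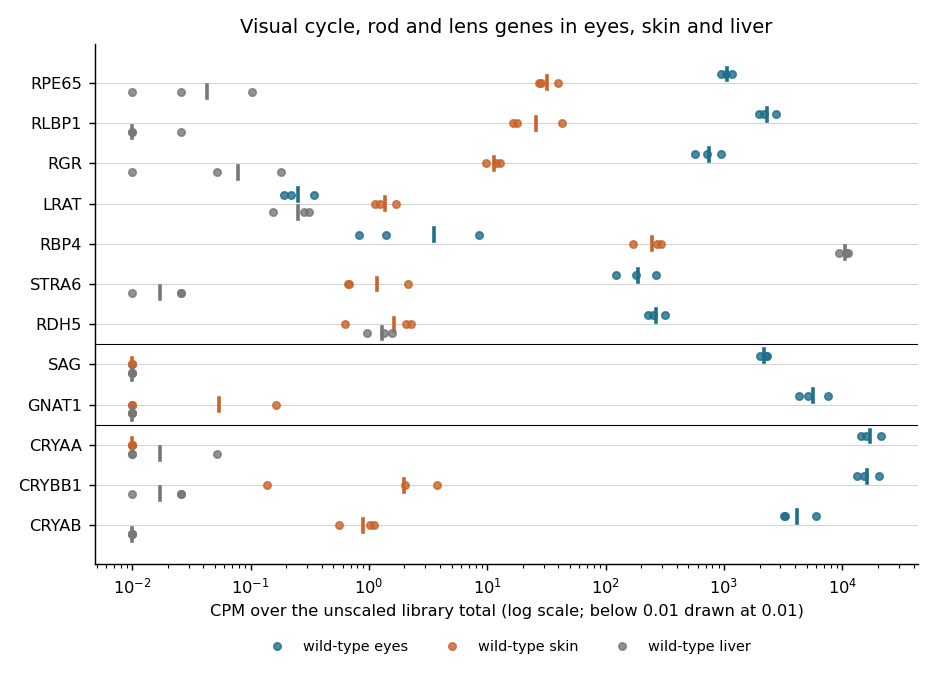
CPM over the unscaled library total, on a log axis with values below 0.01 drawn at 0.01, for 12 genes in wild-type eyes, skin and liver, with points for libraries and bars for means of 3. RPE65, RLBP1 and RGR lie between about 10 and 43 CPM in skin and near 0 in liver, while SAG, GNAT1 and CRYAA lie near or at 0 in both.

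Cornea and sclera genes, glia and skeletal muscle were also compared. COL2A1, the cartilage collagen, had 2215, 2956 and 4994 CPM in eyes and 2.86, 1.75 and 1.88 CPM in skin (10.61 ± 0.56 (adjusted p = 1.83e-05)), and MATN1, cartilage matrilin, had 34643 counts in eyes and none in skin, at least 10896-fold higher. Frogs have a cartilaginous sclera. KERA, the keratocan of corneal stroma, differed by 4.04 ± 0.48, and TGFBI, abundant in human cornea, by 5.05 ± 0.61. Of 13 tested cornea and sclera genes 10 were called higher in eyes, 2 higher in skin (ALDH1A1 and TKT) and 1 was not called. The ALDH1A1 call was lost without eyes 1 or 3 (adjusted p 0.0684 and 0.0664). Of 10 tested glial genes, 11 in the list, 4 were called higher in eyes. Among them was SLC1A3, a glutamate carrier of Müller glia (8.07 ± 0.67). Another 3 were called higher in skin, each at least 4-fold, and the list median was -0.64. The glial list held 0.26, 0.26 and 0.28% of eye counts and 0.32, 0.28 and 0.35% of skin counts. Skeletal muscle markers were called higher in eyes in 21 of 22 cases. CKM, the muscle creatine kinase, had 1409, 869 and 2053 CPM in eyes and 0, 0.0269 and 0.582 CPM in skin, highest in eyes 3.

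Transcription factors were compared next. Of 41 eye transcription factors 40 were tested, of which 35 were called higher in eyes, 3 higher in skin and 2 were not called, with a median of 10.67 (8.38 at bounds). PAX6, the factor needed for eye formation in vertebrates, had 170.3, 199.8 and 190.0 CPM in eyes and 0, 0 and 0.239 CPM in skin (11.34 ± 0.95 (adjusted p = 9.04e-05)). CRX, which drives photoreceptor genes, had 619, 569 and 637 CPM in eyes and 0.177, 0.108 and 0 CPM in skin (12.50 ± 0.70 (adjusted p = 2.11e-05)). OTX2, which works with MITF on melanin genes in retinal pigment epithelium, had 74.7, 70.6 and 76.7 CPM in eyes, 8323 counts, and none in skin, at least 2618-fold higher. In all, 23 of these factors met the rule for genes of the eyes only, beside 2.94% of genes with a count. MAF and LMX1B, which act outside the eye as well, were called higher in skin at -1.23 ± 0.27 and -1.64 ± 0.28. FOXC1 was also called higher in skin, at -0.75 (adjusted p = 0.0378), a call lost under 10 of 16 alternatives.

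HOX genes, which mark position along the trunk, were the counterpart in back skin. The 28 HOX genes in the table held together 4, 6 and 3 counts in eyes and 3270, 3829 and 3086 counts in skin. Of these, 27 had a count, 16 passed the count filter, and all 16 were called higher in skin. Because levels in eyes were near 0, these 16 passed the filter through skin alone and had to differ. HOXA2 had 14.9, 16.5 and 17.1 CPM in skin and no count in eyes, at least 602-fold higher in skin. HOXA4 had 19.0, 31.1 and 28.6 CPM in skin and 2 counts over the eye libraries, a ratio of 1453 (95% counting interval 402 to 11999.9). HOXA3, another member near the head end of its cluster, had no count in eyes either and was at least 250-fold higher in skin.

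Epidermal transcription factors gave 19 of 24 tested genes, 25 in the list, called higher in skin, 1 higher in eyes and 4 not called, with a median of -3.77. TP63, which keeps epidermal stem cells, had 10.2, 17.1 and 11.9 CPM in eyes and 261, 398 and 182 CPM in skin (-4.43 ± 0.39 (adjusted p = 0.000106)), so it was present in every eye library at a lower level. DLX3 and ZNF750, factors of epidermal differentiation, differed by -5.79 ± 0.39 and -5.53 ± 0.45, and FOXN1, the nude gene, by -8.23 ± 0.76.

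**Figure D5:**
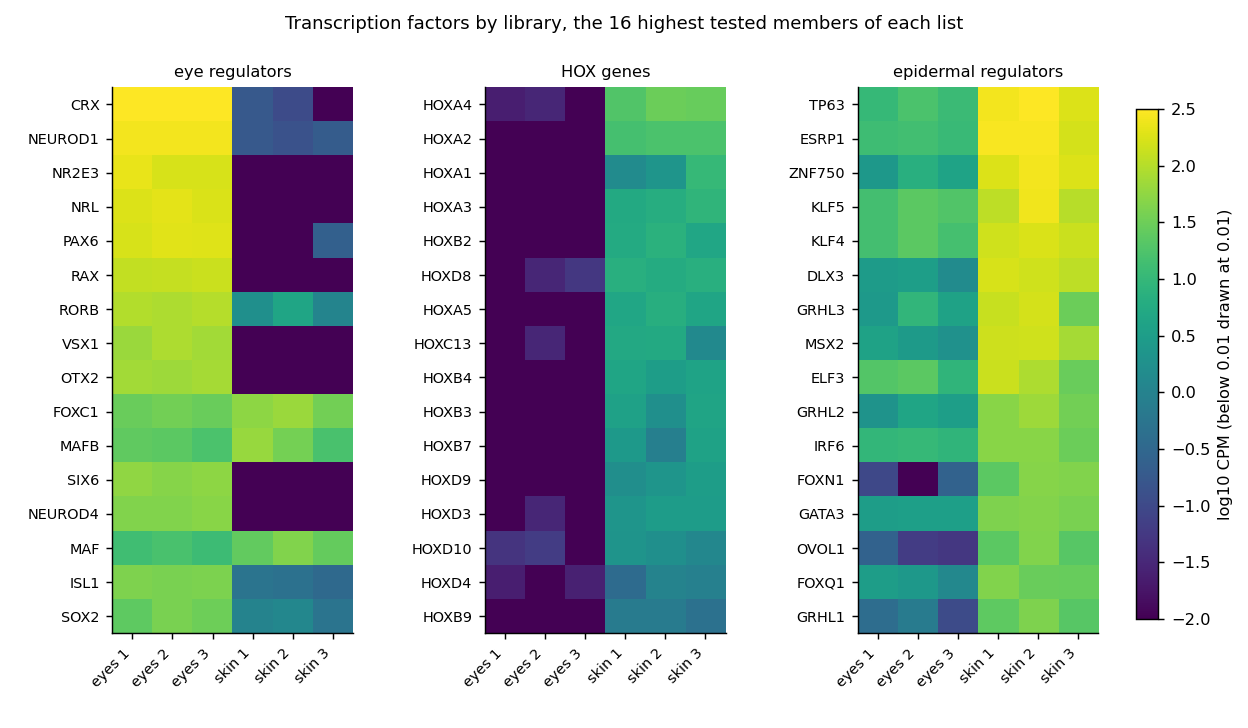
Level of transcription factors in each wild-type library, as log10 CPM by colour with values below 0.01 drawn at 0.01, for the 16 highest tested members of the eye, HOX and epidermal lists. Most eye factors are near 0 in skin, HOX genes are near 0 in eyes, and epidermal factors such as TP63 and KLF5 are lower in eyes without being absent.

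Keratins, cell junctions and barrier genes set skin apart by level. Of 58 keratin genes 40 were tested, of which 30 were called higher in skin, 6 higher in eyes and 4 were not called, with a median of -4.85. The list, matched by product name, leaves out LOC141114336, annotated as a keratin-3 type I gene and named after its values were seen. It had 57.3, 0.279 and 46.4 CPM in eyes and 22770.4, 27955 and 31863 CPM in skin, above every listed keratin in skin. Within the list the most abundant, LOC141127267 and LOC141127266, are annotated as type II cochleal-like keratins. LOC141127267 had 28.5, 0.0621 and 34.2 CPM in eyes and 22081, 24745 and 27537 CPM in skin, a log2 difference of -10.21 ± 1.94 (adjusted p = 0.00378). LOC141127266 had 29.7, 0.124 and 29.9 CPM in eyes and 21119, 24323 and 25850.1 CPM in skin. In both, eyes 2 stood far below eyes 1 and 3, and how reads of copies so alike were shared among them is not given here. Some keratins were higher in eyes: LOC141114323, annotated as a type I 12-like keratin, had 265, 626 and 318 CPM in eyes and 37.2, 33.3 and 30.2 CPM in skin (3.59 ± 0.38 (adjusted p = 0.000245)). Genes with the same 12-like annotation were also called higher in skin: LOC141114318 at -3.15 (adjusted p = 0.000935), LOC141114330, LOC141114337, LOC141114339 and LOC141114340. KRT18, of simple epithelia, was called higher in eyes by 1.03 ± 0.16. Other genes given the KRT18 symbol did not share this direction. LOC141147229 was called higher in skin at -2.66 (adjusted p = 0.027), a call lost under 4 of 16 alternatives. LOC141108753 was not called at -1.13 (adjusted p = 0.126). LOC141147228, given the symbol KRT8, was called higher in skin at -5.41 (adjusted p = 0.000337).

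Of 26 junction and barrier genes 25 were tested and 24 were called higher in skin, with a median of -3.42. DSP, desmoplakin of desmosomes, had 14.7, 23.6 and 21.9 CPM in eyes and 664, 1574 and 1019.8 CPM in skin (-5.75 ± 0.44 (adjusted p = 6.36e-05)). PKP1, another desmosome protein, differed by -6.01 ± 0.30, TGM1, which crosslinks the cornified envelope, by -4.90 ± 0.35, and COL17A1, which ties basal cells to their matrix, by -3.40 ± 0.33.

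Genes for salt and water uptake, a task of frog skin, had 22 members in the table, of which 19 were tested and 14 called higher in skin, none higher in eyes and 5 not called. SCNN1A, a subunit of the epithelial sodium channel, had 1.55, 1.43 and 2.03 CPM in eyes and 74.1, 84.3 and 85.7 CPM in skin (-5.60 ± 0.22 (adjusted p = 1.03e-05)). Its partner subunits SCNN1B and SCNN1G differed by -8.43 ± 0.71 and -4.41 ± 0.46. FOXI1 and ATP6V0A4, the master factor and a proton pump subunit of mitochondria-rich cells, differed by -7.50 ± 0.38 and -6.04 ± 0.39, AQP3, a water and glycerol channel, by -1.49 ± 0.32, and AVPR2, an antidiuretic hormone receptor, by -3.48 ± 0.41.

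Mucus and gland genes were divided, with 34 in the table, 14 tested, 3 of these called in each direction and 8 not called, and with the replicate block 5 were called higher in skin. SPDEF and FOXA1, factors of mucous cells, differed by -5.53 ± 0.46 and -4.82 ± 0.75, while AGR3, a protein of secretory cells, differed by 5.07 ± 0.58 in the direction of eyes. The antimicrobial list had 10 members in the table and 3 tested, but its product match also took in a pair of B2 bradykinin receptor-like genes, which are no peptides. The called member, LOC141117245, is one of these receptors, at -3.09 ± 0.44 (adjusted p = 0.00101). The tested peptide gene, the cathelicidin-like LOC141145620, was not called at -0.62 ± 0.88 (adjusted p = 0.58). With the receptor genes included, the list held 193, 161 and 151 counts in eyes 1, 2 and 3. In skin 1, 2 and 3 it held 637, 437 and 6550. The list leaves out LOC141104652, annotated as pelophylaxin-1-like, a frog skin peptide with a mean of 1258 CPM in skin, given under other observations.

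Dermal matrix genes were called about as often as all tested genes (54.8% beside 55.8%). Of 33 matrix genes 31 were tested. Of these, 15 were called higher in skin (48.4%, beside 26.6% of all tested genes) and 2 higher in eyes. The other 14 were not called, and the median was -0.75. POSTN, periostin, differed by -4.67 ± 0.31 (adjusted p = 3.66e-05), and DPT, dermatopontin, by -3.02 ± 0.31. The type I collagen genes were not called: COL1A1 had 3019.5, 4411 and 4911 CPM in eyes and 5951, 2620.1 and 9069 CPM in skin (-0.52 ± 0.47 (adjusted p = 0.388)), and COL1A2 differed by -0.75 ± 0.46 (adjusted p = 0.204). COL3A1 was not called at -0.77 (adjusted p = 0.0506), but was called under 4 of 16 alternatives, among them the replicate block (0.0277). COL5A1 was called higher in skin at -1.27 (adjusted p = 0.0272), a call lost under 5 of 16, and COL5A2 was not called at -0.54. The skin calls of COL14A1, PDGFRA and FBLN2 were lost under 9, 5 and 4 of 16 alternatives. MFAP5, called higher in eyes (adjusted p = 0.0499), lost its call under 6 of 16. THBS1 and DCN were not called, but were called under 3 and 1 of 16. Smooth muscle and vessel markers had 8 of 12 tested members called higher in skin, among them TAGLN (-4.18 ± 0.46) and ACTA2 (-3.45 ± 0.39), and the endothelial receptor KDR higher in eyes (2.80 ± 0.25). Other endothelial genes did not share the direction of KDR. PECAM1 and VWF were called higher in skin at -1.61 and -1.84, and CDH5 at -0.67 (adjusted p = 0.0319). The CDH5 call was lost under 10 of 16 alternatives. TIE1, TEK and ERG were not called. Of 19 macrophage and granulocyte markers 17 were tested, of which 6 were called higher in skin and none in eyes (9 higher in skin with the replicate block). The share higher in skin was 35.3%, beside 26.6% of all tested genes. CTSS, a lysosomal protease of these cells, had 367, 102 and 97.0 CPM in skin. Skin 1 was the highest. CTSS was at -1.83 ± 0.60 (adjusted p = 0.0352) with all libraries and at -0.91 (adjusted p = 0.0710) without skin 1. The call was lost under 8 of 16 alternatives, among them leaving out eyes 2 or 3 (0.110 and 0.112), library totals (0.0660), no count filter (0.0564) and limma (0.108 to 0.128). MSR1, C1QB and NCF1 of this list lost their calls under 10, 9 and 4 of 16 alternatives. Lymphocyte markers had 6 of 14 tested (15 in the list) called higher in skin (42.9%, beside 26.6% of all tested genes). The calls of ZAP70 and CD8B were each lost under 4 of 15 alternatives. IL7R lost its call under 3 of 15, CD8A under 2 of 16 and CD28 under 1 of 15. Erythrocyte markers had 1 of 11 called in each direction (2 in each with the replicate block), and of 11 hepatocyte markers 2 were tested and 1 was called higher in skin.

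Antioxidant genes bear on the oxidative stress named by the series. Of 24 tested, 6 were called higher in eyes (25%), 11 higher in skin (45.8%) and 7 were not called. The shares over all tested genes were 29.2% and 26.6%. The calls of GSR, NQO1 and SOD1 were lost under 12, 5 and 3 of 16 alternatives, and that of GCLM under 1 of 15. GPX4 and PRDX4 were not called (adjusted p = 0.0823 and 0.0512), but were called under 7 and 4 of 16 alternatives. Catalase, which destroys hydrogen peroxide, has at least a pair of genes in the table that behaved differently. The gene named CAT had 2.12, 1.74 and 0.50 CPM in eyes and 114, 136 and 92.7 CPM in skin (-6.29 ± 0.56 (adjusted p = 0.000119)). LOC141111968, a catalase copy, had 179.7, 165 and 163 CPM in eyes and 177, 176 and 223 CPM in skin, and its difference of -0.19 ± 0.18 (adjusted p = 0.415) was not called. FTH1, the heavy chain of the iron store ferritin, differed by -2.27 ± 0.35 (adjusted p = 0.00144), and PRDX6, a peroxiredoxin, by -2.05 ± 0.20. On the eye side, PRDX2, another peroxiredoxin, differed by 2.53 ± 0.35 (adjusted p = 0.000818) and SOD3, the secreted superoxide dismutase, by 2.17 ± 0.52 (adjusted p = 0.0104).

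Genes of one organ, with at least 1 CPM in each library of that organ and at most 3 counts over the other, numbered 692 in eyes (2.94% of 23575 genes with a count) and 179 in skin (0.759%). After CRYAA, the eye-only genes with a symbol and the most counts were CRYGN, SAG, RBP3, PRPH2 and ROM1, a crystallin and 4 photoreceptor genes. RBP3, the retinoid carrier between photoreceptors and pigment epithelium, was at least 71445-fold higher, and PRPH2, a disc rim protein, at least 55749-fold. On the skin side PROK2, a secreted prokineticin with relatives known from toad skin secretion, had 67.4, 502 and 44.4 CPM in skin and no count in eyes, at least 7983-fold higher, with the highest level in skin 2. IL1A, an interleukin stored by keratinocytes, had 14.1, 14.8 and 16.9 CPM in skin and 1 count over the eye libraries, a ratio of 1697 (95% counting interval 304 to 67062). HOXA4, HOXA2, RNF222 and NKIRAS1 were the others named by count.

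By level per length, the 10 genes with a symbol called higher in skin with the most FPKM were all ribosomal protein genes. This ranking covers only genes at least 4-fold higher in skin, with no overlap. Genes named by a locus number, such as the abundant skin keratins, were not ranked. RPLP1, a stalk protein of the large subunit, had 1507, 1491 and 1527 CPM in eyes and 4947, 5037 and 10555 CPM in skin (-2.18 ± 0.38 (adjusted p = 0.00248)). RPL32 and RPS9 differed by -2.03 ± 0.31 and -2.07 ± 0.32, and skin 3, the library with the lowest scaling factor (0.794), was the highest in all of these 3. Without skin 3 the differences were -1.69, -1.69 and -1.70, and with crystallin genes left out of the scaling they were -2.14, -1.99 and -2.03. All passed the adjusted p threshold there, but all 3 without skin 3, and RPL32 without crystallin genes, fell short of the 4-fold size by which these genes were picked.

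The same contrast in albino frogs used 6 other libraries. There 10864 of 18309 tested genes were called (59.3%), 30.1% of tested genes higher in eyes and 29.2% higher in skin. Of 9875 genes called in wild-type and tested in both, 9663 (97.9%) had the same direction in albino libraries and 8206 (83.1%) were also called in it. Among the 5117 with a wild-type difference of at least 4-fold, 4734 (92.5%) were called in the same direction. Only 28 genes were called in opposite directions, and the pigment genes OCA2 and MREG were among them. OCA2 was at 1.40 in wild-type and -1.004 in albino libraries, and MREG at -0.58 and 0.68, but the difference between genotypes was not called for either (adjusted p = 0.0786 and 0.0909). It was called for OCA2 with the replicate block, with DESeq2 and without wild-type skin 1, and for MREG with DESeq2. The wild-type calls of OCA2 and MREG were those lost without single libraries, as given above. DCT remained called higher in eyes, at 2.67 in albino libraries, and TYRP1 at 0.71.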

How the data were processed

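RNA was extracted with TRIzol and libraries were made with a VAHTS Universal V10 RNA-seq kit, per the labels. HISAT2 and HTSeq are named, with no version, in the submitters' processing notes. The build of the genome, the strand setting and the treatment of multi-mapped reads: not given in the sources used here. For each gene the authors deposited a count of whole reads, not normalized. Their deposited FPKM divide that count by gene length in kilobases and by the library total in 1e6 counts. All 24636 gene identifiers were found in the RefSeq table of assembly ASM4218655v1, used for names only. No sequences or coordinates are printed.

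Groups were taken from the sample titles. The 6 wild-type eye and skin libraries were tested on counts by edgeR 4.0.16 in R 4.3.3 (filterByExpr, TMM, robust quasi-likelihood test, Benjamini-Hochberg adjustment). The SE is the log2 difference divided by the square root of F. CPM are over TMM-scaled totals, except list shares and the skin to liver comparison, which use unscaled totals. A gene with 0 counts in an organ is given against a floor of 3 counts over that organ, and one with 1 to 3 counts as a ratio; intervals and floors cover counting error only. The albino contrast was fitted alike on 6 albino libraries, and the difference between genotypes as an interaction on 12. Code was tested on simulated data.

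Whether equal replicate numbers pair an eye with a skin library was checked from residuals across genes. The same-numbered pairs had r of 0.464, 0.316 and 0.376, and all others lay between -0.31 and -0.0975. Equal numbers may therefore be pairs, by the data and not the labels. The main tests did not use this pairing: their differences, SE, adjusted p-values and calls are unpaired, and the replicate block is an alternative. Alternatives were DESeq2 1.42.0, other scalings, no count filter, the replicate block, 1 fit of all 18 libraries, limma 3.58.1 on log2 FPKM, and leaving out each library.

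Genes and lists were chosen with earlier results of these data known. Named by rule were all melanin enzyme, matrix and transport genes, MITF, SOX10, PAX3, KIT, MC1R, TFEC, OTX2, POMC and ASIP. From each other list came up to 5 called members with the largest FPKM in the higher organ. Over all genes came the 10 with the largest FPKM in each direction (called, at least 4-fold, no overlap, with a symbol) and the 6 genes of one organ with the most counts. Some genes picked by the rule are not reported here. Other genes named were chosen after their values were seen.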

Additional observations from a re-analysis of the deposited data

Results flagged for a closer look

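The eye to skin difference of a pair of pigment genes differed between the genotypes in the interaction test of edgeR, where 193 of 19477 genes passed (0.991%). For TYR the difference, eyes minus skin, was 2.37 ± 0.28 in wild-type and -0.22 ± 0.19 in albino libraries, and the interaction, albino minus wild-type, was -2.60 ± 0.35 (adjusted p = 0.0123). For PMEL it was 2.76 ± 0.31 in wild-type and 0.52 ± 0.21 in albino libraries, with an interaction of -2.26 ± 0.36 (adjusted p = 0.0220). Without albino eyes 1 neither passed (0.0517 for TYR and 0.0889 for PMEL), and PMEL was also lost without wild-type eyes 2 (0.0690) or albino eyes 2 (0.0783).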

How the results depend on the processing

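The alternatives did not all test the 18338 genes of the main fit. The count of 10230 called genes ran from 8432 to 10134 when each library was left out in turn, with 18891 to 19062 genes tested. Under the other alternatives it ran from 7729 (of 13144 tested) to 11572 (of 20238 tested). With the replicate number as a block it was 10724, and beside the changes given with the results the block also ended the call of LOC141106221, another copy of PCBD1 (adjusted p = 0.0747), and changed no other call of the genes named by rule. Of 169 such genes tested, 144 kept their call under every alternative, 23 lost it under at least 1, 2 gained one and 0 reversed. Of 428 other tested genes of the lists, 68 changed call under at least 1 alternative and 1 reversed. Library totals in place of TMM moved the median of all genes to 0.101, and limma on log2(FPKM + 0.1) to 0.125. The number of genes with at least a 4-fold difference fell from 5460 to 2367 with limma on log2(FPKM + 1) and to 2360 with its FPKM filter, where adding 1 shrinks the differences of low genes. Genes of the eyes only numbered 451 when 0 counts were allowed in skin, in place of 692. Genes of skin only numbered 84 with 0 and 288 with 10 counts allowed in eyes, in place of 179. With 1 eye library kept, alternatives chosen after seeing the data, they numbered 312 with eyes 1, 307 with eyes 3 and 403 with eyes 2. Pigment genes whose organ difference differed by genotype numbered 2, and 9 with DESeq2, 4 with the replicate block, and 0 to 4 without single libraries. The count of 0, by edgeR without albino eyes 1, stands beside 18 genes called in all. Depth limits the genes of one organ: 3 counts over an organ is the floor of detection, and a gene below it may still be expressed. The cause of the changes in count was not tested otherwise.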

Other observations

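Some genes outside the lists were looked at after their values were seen. LOC141104652, annotated as pelophylaxin-1-like, a frog skin peptide, had 204, 2633 and 937 CPM in skin and 11 counts over the eye libraries. NOS3, the endothelial nitric oxide synthase, had 47.3, 13.1 and 37.0 CPM in eyes and 2987, 1366 and 840.3 CPM in skin, a log2 difference of -5.74 ± 0.74 (adjusted p = 0.000625 by edgeR's quasi-likelihood test). LOC141145314, annotated as a hemoglobin alpha-3-like gene, had no count in eyes and was at least 11090-fold higher in skin. Its skin values by library are not given here. Erythrocyte markers did not share this split, with 9 of 11 not called and a median log2 difference of -0.77. That list held 0.0105, 0.0083 and 0.0111% of counts in eyes 1, 2 and 3 and 0.0064, 0.0035 and 0.0066% in skin 1, 2 and 3.

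The abundant skin keratins were not spread evenly over the eye libraries. LOC141127267 had 1195, 2 and 1300 counts in eyes 1, 2 and 3, and LOC141127266 had 1245, 4 and 1138. Eyes 2 had 0 counts of LOC141107915, an uncharacterised gene with 1274 CPM in skin, where eyes 1 and 3 had 280 and 174. A similar drop in eyes 2 was seen in LOC141114336 (2405, 9 and 1764 counts), LOC141114267 (515, 4 and 300) and LOC141117636 (344, 2 and 206). LOC141106191 did not show it, with 1216, 817 and 1438 counts, 0.286, 0.251 and 0.374% of its skin mean. DSP had 619, 761 and 834 counts in eyes 1, 2 and 3, and LOC141114330, a type I 12-like keratin, had 5715, 9560 and 7373. These were 1.36 to 2.18% and 2.27 to 4.94% of skin, against 0.115 and 0.138% for LOC141127267 in eyes 1 and 3. A drop of that small size would not show in them. The source of the keratin and other skin gene counts in eyes 1 and 3 was not tested.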
